A study of Polypterus senegalus with 8 samples.

Results

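The transcripts described here are the 100 components, assembled from reads of bichir pectoral fin libraries, whose level stood highest above all other stages at 7 days post amputation (dpa). They were chosen by their measured values among 94050 components, an assembly component being a group of assembled transcripts that resembles a gene. Of these, 11026 components reached a level of 10 CPM (reads of a component per 1000000 reads of its library) in the 7 dpa library. They were ranked by the margin, log2((7 dpa CPM + 1)/(highest CPM of the 0, 3 and 14 dpa libraries + 1)), and the top 100 were taken. The rule also named 6 components to leave out, and none of them stood in the top 100. Since these values selected the members, the peak itself is a description and not a result.

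The bichir (Polypterus senegalus) is a ray-finned fish that regrows its pectoral fins. The pectoral fins were partly removed under MS222 anaesthesia, and mRNA was sequenced from regenerating tissue at 3, 7 and 14 dpa and from uninjured fins (0 dpa). Each stage was 1 library made from at least 4 pooled tissues, so the spread between fish is unknown, no difference given here was checked in a replicate and no test between stages was possible. No age, sex or strain of the fish is given in the sources used here, and the labels name no mutation or drug treatment beyond the anaesthetic.

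The blastema is the mass of dividing cells that forms under the wound epidermis of an amputated fin and rebuilds the lost part. Its formation in fish involves an early wave of inflammatory cells, the removal of damaged matrix by secreted proteases and the resorption of mineralised bone matrix near the stump by osteoclasts, which are large cells of the macrophage lineage. Collagenases such as Mmp13 cut fibrillar collagen, while tartrate-resistant acid phosphatase, encoded by acp5 genes, is a classical marker of osteoclasts.

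The mRNA libraries held 38095865 to 43350285 reads, the 7 dpa library being the deepest, and 1 read was worth 0.0231 to 0.0262 CPM. Intervals given in brackets are 95% intervals for counting error alone, on the log2(CPM + 1) scale, a scale that understates changes of low components. Levels are not divided by transcript length and are therefore compared between libraries only. In pooled whole tissue, more cells of a type and more RNA per cell cannot be told apart. The middle of all components also moved: over the 28836 components with a mean of at least 1 CPM, the median log2 change at 7 dpa against 0 dpa was 0.85 by library totals and 0.21 under a trimmed mean of log ratios. Named genes of 4 skeletal muscle symbols, in 11 components, summed to 2873, 92.7, 37.8 and 246 CPM at 0, 3, 7 and 14 dpa. The study describes bichir fins as having no skeletal muscle, while these genes were read at 0 dpa. Whether the pools differed in the tissue taken was not tested. The part of this fall of muscle gene RNA in the levels below was not tested either.

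The members took up little of the RNA of the fin. Together they made up 0.106%, 0.302%, 1.11% and 0.236% of the reads at 0, 3, 7 and 14 dpa. At 7 dpa their levels ran over 10.1 to 1771 CPM with a median of 22.1 CPM. The margin over the highest other library was 1.27 to 6.31 with a median of 1.97, and 49 of the 100 stood over 4-fold above every other library. All 100 were over 1.5-fold higher at 7 dpa than at 0 dpa, where 72.3% of the 11026 components were, over 1.5-fold higher than at 3 dpa, where 9.21% were, and over 1.5-fold higher than at 14 dpa, where 9.7% were. A level highest at 7 dpa, which the rule required, was seen in 28.6% of the 11026. These shares depend on the scaling: under the trimmed mean, 34.2% of the 11026 passed 1.5-fold upward at 7 dpa against 0 dpa and 21.0% passed it downward, while 17.5% passed it upward against 3 dpa and 21.3% against 14 dpa, and 30.3% were highest at 7 dpa. Of the members, 94 were then over 1.5-fold higher than at 0 dpa, all but those at ranks 72, 78, 80, 83, 84 and 98, and all 100 than at 3 and at 14 dpa. The median log2 change of the members was 3.52 against 0 dpa, 2.203 against 3 dpa and 2.46 against 14 dpa, beside 1.15, -0.08 and -0.05 over the 11026 components. These counts and medians follow from the choice of members.

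After their values were seen, the members were divided into 2 kinds by what was read before 7 dpa. In 31 members the 0 and 3 dpa libraries each held 3 reads or fewer, and the 0 dpa library held none. In the other 69 the transcript was already read at 0 or 3 dpa and went higher at 7 dpa. The median level of the 31 was 14.0 CPM at 7 dpa, and that of the 69 was 32.6 CPM. These values also grow with transcript length, so the 2 kinds are not compared by them.

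**Figure D1:**
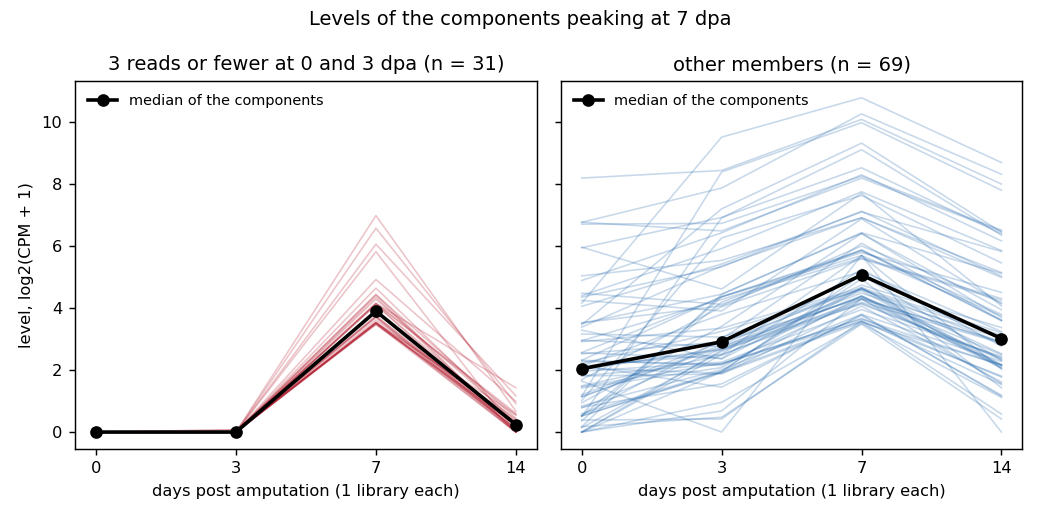
Level of each member as log2(CPM + 1) against days post amputation, with 1 library per stage. The left panel holds the 31 members with 3 reads or fewer at 0 and 3 dpa and the right panel the other 69, thin lines are components and the black line is their median. The 31 lie on 0 or next to it at 0 and 3 dpa, while the 69 start over a wide range of levels.

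The genes named among the members included collagenases, 2 genes known from osteoclasts and an inflammatory cytokine. The study's tables, as far as they are held here, pair 13 members with 9 zebrafish gene symbols: mmp13a and mmp13b with 3 components each, and siglec15, il1b, acp5a, dctd, htra1b, ctssb.2 and igfbp3 with 1 component each. A further member, at rank 57, is paired with a zebrafish gene without a symbol in those tables, and 86 have no pairing. All 13 belong to the 69 members already read at 0 or 3 dpa. Of the 11026 components, 1495 carry a symbol. The tables were partly built from genes that the study found changed in these libraries, so the names are no independent sample of the members.

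Collagenase components were far higher after amputation than in the uninjured fin and made up 6 of the 13 named members. One mmp13a component (comp59545_c0) was at 16.9, 733, 1771 and 414 CPM at 0, 3, 7 and 14 dpa. This was the highest 7 dpa CPM of all 100 members, a value that also grows with transcript length. By library totals the 7 dpa level was 104.7-fold that at 0 dpa, 2.42-fold that at 3 dpa and 4.27-fold that at 14 dpa. The log2 change of this component against 0 dpa was 6.63 by library totals and 5.67 under the trimmed mean. An mmp13b component (comp59594_c0) was at 1.23, 335, 1013 and 223 CPM over the same stages. Its log2 change at 7 dpa against 0 dpa was 8.83 [8.59 to 9.06] by library totals and 8.16 under the trimmed mean. A second mmp13b component (comp59559_c0) was at 0.409, 119, 553 and 80.9 CPM, with a log2 change of 2.202 [2.16 to 2.25] at 7 dpa against 3 dpa. Both were thus close to absent from the uninjured fin and high at every stage after amputation.

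The other mmp13 members took fewer reads but had the same order of stages. The third mmp13b component (comp57477_c0) was at 1.02, 75.9, 198 and 43.0 CPM at 0, 3, 7 and 14 dpa. Of the mmp13a components, comp60926_c0 was at 0.435, 17.3, 58.1 and 11.05 CPM, and comp61282_c0 was listed at 0 reads at 0 dpa, with 5.25, 16.6 and 4.17 CPM at 3, 7 and 14 dpa. All 6 were thus lowest at 0 dpa, highest at 7 dpa, and higher at 3 dpa than at 14 dpa. The 6 components summed to 3610 CPM at 7 dpa, against 20.01, 1286 and 776 CPM at 0, 3 and 14 dpa.

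Not every component with the mmp13 name peaked at 7 dpa. The tables pair 11 components with mmp13a or mmp13b, and 5 are not members. Of these, 3 mmp13a components were highest at 14 dpa: comp61055_c0 was at 2.04, 8.85, 12.6 and 37.9 CPM at 0, 3, 7 and 14 dpa, comp61022_c0 at 0.281, 1.60, 1.91 and 8.81 CPM, and comp28147_c0 at 0.256, 2.18, 3.16 and 8.49 CPM. Their 7 dpa level was 0.217 to 0.372 times that at 14 dpa, while in the 6 members it was 3.97 to 6.84 times that at 14 dpa. The other 2 are mmp13b components that were highest at 7 dpa but stayed under the 10 CPM minimum, with 51 and 18 reads there. The RefSeq gene table of the bichir (ASM1683550v1) lists 1 gene with the symbol mmp13b and none with mmp13a, and no component could be placed on that assembly. Near-identical collagenase transcripts can share reads, so the split between components is less certain than their sum.

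**Figure D2:**
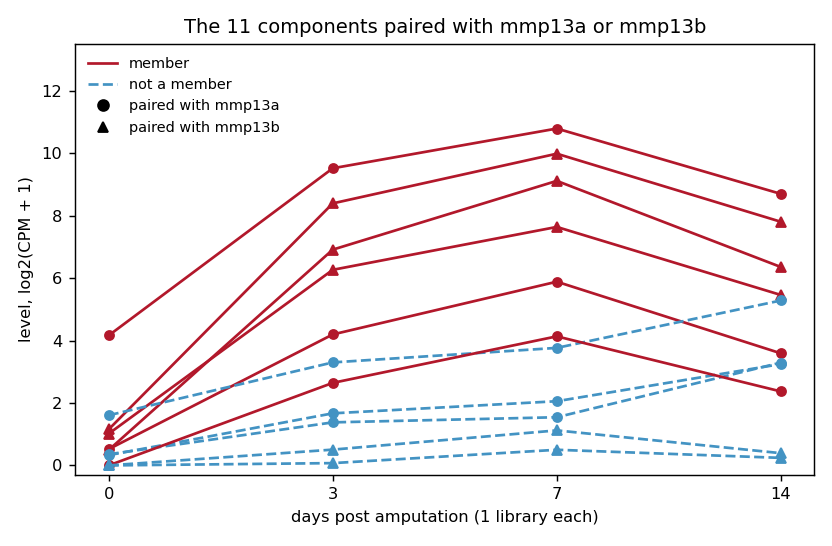
Level as log2(CPM + 1) of the 11 components paired with mmp13a (circles) or mmp13b (triangles) against days post amputation, 1 library per stage. The 6 members (solid red) are highest at 7 dpa, and 3 of the 5 others (dashed blue) are highest at 14 dpa.

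Of the 13 named members, 2 are genes known from osteoclasts. Other genes of the osteoclast lineage, given below, were divided between this peak and other stages. acp5a (comp27495_c0), a tartrate-resistant acid phosphatase gene, was at 20.2, 59.7, 215 and 57.0 CPM at 0, 3, 7 and 14 dpa. Its log2 change at 7 dpa was 3.35 [3.25 to 3.45] against 0 dpa, 1.83 [1.77 to 1.90] against 3 dpa and 1.90 [1.83 to 1.97] against 14 dpa. That the 7 dpa library stood apart follows from the choice of members. The 3 and 14 dpa levels lay close together, as in most components. Of the 11026, 4.63% were over 1.5-fold higher at 14 dpa than at 3 dpa and 2.64% lower. Under the trimmed mean the change of acp5a against 0 dpa was 2.39. siglec15, which in mammals encodes a sialic acid receptor needed for osteoclasts to mature, had the largest margin of the named members. Its member component (comp43243_c0) was listed at 0 reads at 0 dpa, with 23 reads (0.604 CPM) at 3 dpa, then 816 reads (18.8 CPM) at 7 dpa and 75 reads (1.95 CPM) at 14 dpa. That is 31.2-fold higher at 7 dpa than at 3 dpa, 9.63-fold higher than at 14 dpa and, against a floor of 3 reads in the 0 dpa library, at least 245-fold higher than at 0 dpa. A second siglec15 component (comp54686_c0) stayed under the 10 CPM minimum, at 0.383, 4.51, 5.84 and 2.58 CPM at 0, 3, 7 and 14 dpa. It too was highest at 7 dpa, but already stood near its peak at 3 dpa.

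A list of 21 osteoclast symbols, written after these values were seen, met 6 of its symbols in the tables. Of its 6 components over the minimum, 4 were highest at 7 dpa, beside 28.6% of the 11026 components. Of these, 2 are members, highest there by the rule. mmp9, a gelatinase of osteoclasts and of neutrophils and one of the components the rule leaves out, was at 16.2, 786, 1467 and 546 CPM at 0, 3, 7 and 14 dpa. csf1ra, the macrophage colony stimulating factor receptor of the whole macrophage lineage, was instead highest at 3 dpa, at 0.767, 48.6, 24.0 and 35.4 CPM. Over the minimum, spi1b, a transcription factor of myeloid cells, split between a component highest at 3 dpa (11.6, 145, 94.8 and 83.3 CPM) and one highest at 7 dpa (30.6, 74.9, 93.4 and 50.4 CPM). A further spi1b component, under the minimum, was highest at 14 dpa, at 0.332, 1.73, 1.06 and 1.80 CPM. nfatc1, a transcription factor that drives osteoclast formation in mammals, stayed under the minimum in both components with its name, at 0.204, 2.47, 1.55 and 4.30 CPM and at 0.153, 2.18, 1.29 and 3.60 CPM, both highest at 14 dpa. Relative to the 3 dpa library, csf1ra and nfatc1 were thus lower at 7 dpa, as were the spi1b components other than the one highest there. That spi1b component, acp5a, siglec15 and mmp9 were higher. The list summed to 80.4, 1126, 1922 and 786 CPM at 0, 3, 7 and 14 dpa, most of it mmp9 at the stages after amputation.

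Inflammation and intracellular proteolysis were represented by a cytokine and a cathepsin. il1b (comp26304_c0), the gene of interleukin-1 beta, an early inflammatory cytokine, was at 0.460, 6.98, 67.3 and 11.2 CPM at 0, 3, 7 and 14 dpa, with 18 reads in the uninjured fin. It was 9.64-fold higher at 7 dpa than at 3 dpa and 6.01-fold higher than at 14 dpa, with a log2 change against 3 dpa of 3.10 [2.94 to 3.26]. That its highest level was read at 7 dpa and not at 3 dpa follows from the choice of members and rests on 1 library per stage. ctssb.2 (comp48966_c0), named after the cysteine protease cathepsin S, was near the minimum, at 3.17, 2.73, 10.7 and 3.49 CPM at 0, 3, 7 and 14 dpa. Its log2 change at 7 dpa was 1.48 [1.25 to 1.72] against 0 dpa and 1.38 [1.15 to 1.61] against 14 dpa. Against 0 dpa it was 0.66 under the trimmed mean and 0.62 under the median of ratios, close to the 1.5-fold threshold of 0.58. Among 7 components of a list of leukocyte and inflammation genes over the minimum, 4 were highest at 7 dpa, beside 28.6% of the 11026 components. Of these, il1b and acp5a are members, highest there by the rule, while ctssb.2 is not on the list. acp5a, csf1ra and the spi1b components are also on the osteoclast list, so these lists overlap. The others at their highest there were a spi1b component given above and cd74a, the invariant chain of antigen presentation, at 2551 CPM against 1965 CPM at 0 dpa. By library totals ptgs2b, csf1ra and the other spi1b component over the minimum were highest at 3 dpa. Under the trimmed mean ptgs2b was highest at 7 dpa instead, by log2 0.15 over 3 dpa and 0.30 over 14 dpa. In all, 4 of the 7 were then highest at 7 dpa. The minimum at 7 dpa leaves out list genes that were low there. Both lyz components were left out, at 17.6, 10.6, 9.32 and 8.42 CPM and at 11.3, 2.68, 4.75 and 2.32 CPM at 0, 3, 7 and 14 dpa. The log2 change of cd74a at 7 dpa against 0 dpa was 0.38 by library totals and -0.62 under a trimmed mean of log ratios, so its direction depends on the scaling.

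The remaining named members act outside the cell or in nucleotide metabolism. htra1b (comp16034_c0), a secreted serine protease gene of the HtrA family that acts on matrix proteins, was at 60.7, 121, 369 and 83.4 CPM at 0, 3, 7 and 14 dpa. Its log2 change was 2.58 [2.52 to 2.64] at 7 dpa against 0 dpa and 1.60 [1.56 to 1.65] against 3 dpa, the first of these being 1.59 under the trimmed mean. At 14 dpa its change against 0 dpa was 0.45 by library totals and -0.82 under a trimmed mean of log ratios, so that no direction is given for it. igfbp3 (comp45353_c0), which encodes a carrier of insulin-like growth factors, was at 15.6, 41.9, 137 and 56.0 CPM. It is the last member by rank, with a margin of 1.27 over the 14 dpa library, and its log2 change against 0 dpa was 3.05 by library totals and 2.09 under the trimmed mean. dctd (comp46736_c0), the gene of deoxycytidylate deaminase, an enzyme that feeds thymidylate synthesis, was at 61.6, 23.5, 208 and 15.8 CPM. It was the only named member under its 0 dpa level at both 3 and 14 dpa under library totals, by log2 -1.35 [-1.46 to -1.25] and -1.90 [-2.02 to -1.77]. Under the trimmed mean ctssb.2, at -1.14 and -0.91, and htra1b, at -0.26 and -0.82, were also below it at both stages. dctd was then at -2.58 and -3.14. By library totals dctd was 3.38-fold higher at 7 dpa than at 0 dpa and 13.2-fold higher than at 14 dpa. Its log2 change at 7 dpa against 0 dpa was 1.74 by library totals and 0.75 under the trimmed mean.

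**Figure D3:**
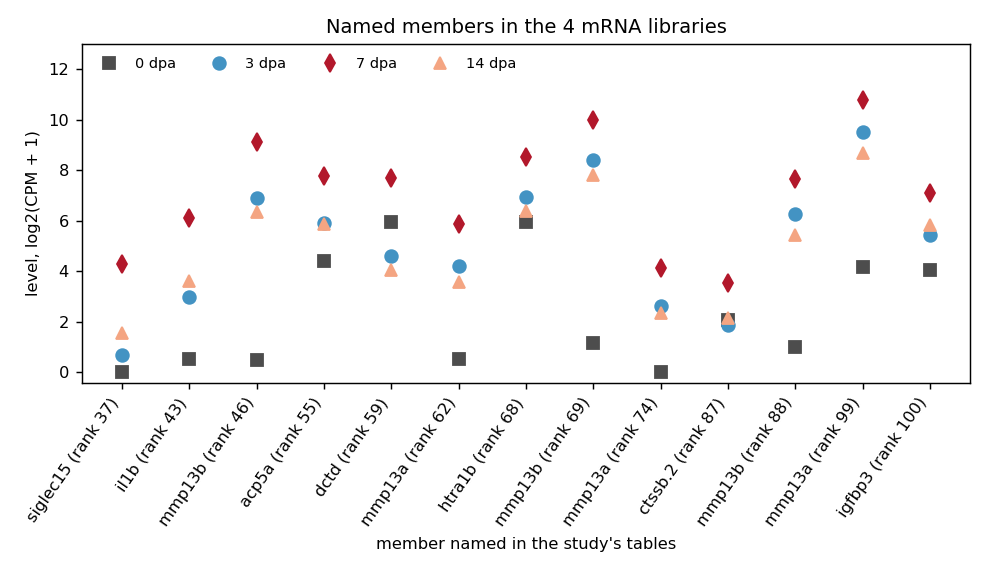
Level as log2(CPM + 1) of the 13 named members at 0 dpa (squares), 3 dpa (circles), 7 dpa (diamonds) and 14 dpa (triangles), 1 library per stage, ordered by rank. The 7 dpa point is the highest of each by the choice of members, the 0 dpa point is the lowest except in dctd and ctssb.2, and dctd is the one with its second highest point at 0 dpa.

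The wider gene groups moved with the members to unequal degrees. A component can be on a list only if it carries a symbol, as 1495 of the 11026 do. The study's tables that give the symbols were partly built from genes found changed in these libraries. Shares over the components with a symbol are not given, so the 11026 are no matched background for any list, above or below. Of 25 components of a list of matrix and matrix turnover genes over the minimum, 16 were highest at 7 dpa, beside 28.6% of the 11026 components. The 6 members among them, highest there by the choice of members, are the mmp13 components. Those nearest to them were ccdc80, an extracellular matrix gene, at 64.7, 145, 431 and 213 CPM at 0, 3, 7 and 14 dpa (margin 1.02), mmp9, given above (margin 0.90), and has2, a hyaluronan synthase, at 3.04, 10.6, 35.7 and 19.8 CPM (margin 0.82). Matrix genes highest at 14 dpa instead included fbn2b, a fibrillin, at 63.0, 229, 478 and 1398 CPM. Of 19 components of a list of blastema and patterning signals, 9 were highest at 7 dpa, beside the same 28.6%, and igfbp3 is the only member. The nearest were junb, a transcription factor of the AP-1 complex, at 83.4, 445, 855 and 518 CPM, and axin2, a Wnt target gene, at 24.7, 29.3, 48.5 and 24.9 CPM. For axin2 the log2 change at 7 dpa against 0 dpa was 0.94 by library totals and -0.03 under a trimmed mean.

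Cell division genes did not share the peak by library totals. All 19 components of the cell cycle and DNA replication list over the minimum were over 1.5-fold higher at 7 dpa than at 0 dpa, where 72.3% of the 11026 components were. None was highest at 7 dpa, beside 28.6% of the 11026, and none was a member. mki67, a marker of dividing cells, was at 17.3, 82.7, 63.8 and 119 CPM at 0, 3, 7 and 14 dpa. Its margin of -0.89 was the lowest of the 19, and their median margin was -0.38. At the other end, kif20a was at 14.9, 33.0, 46.7 and 46.7 CPM. The counts of these components depend on the scaling. Under a trimmed mean of log ratios 8 of the 19 were highest at 7 dpa, beside 30.3% of the 11026. Then 15 were over 1.5-fold higher than at 0 dpa, beside 34.2%. Of 5 epidermal components, 1 was highest at 7 dpa by library totals, beside 28.6% of the 11026, and none was a member. The cartilage and bone, erythrocyte and muscle lists had 1 component each over the minimum and the vessel and nerve list had 0, so these lists could hardly hold a member, and none did. A list of lens, pancreas, liver and gut genes met no symbol in the tables.

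The 31 members that the 0 and 3 dpa libraries lacked carried no gene name. Together they had 0, 4, 32059 and 372 reads at 0, 3, 7 and 14 dpa. The first by rank, comp53964_c0, was listed at 0 at 0 and 3 dpa, with 5450 reads (126 CPM) at 7 dpa and 23 reads (0.599 CPM) at 14 dpa. That is at least 1639-fold higher at 7 dpa than at 0 dpa, at least 1596-fold higher than at 3 dpa, and 210-fold higher than at 14 dpa, with a log2 change against 14 dpa of 6.31 [6.06 to 6.52]. The member at rank 2 reached 55.5 CPM, with no read in the other libraries. Those at ranks 3 and 4 reached 94.7 and 66.0 CPM, with 0.886 and 1.25 CPM at 14 dpa and no read at 0 and 3 dpa. At ranks 5 to 8 the 7 dpa levels were 20.7, 24.0, 19.5 and 16.4 CPM, and at ranks 10 to 15 they ran over 12.1 to 29.4 CPM. Ranks 10 and 26 are subcomponents of one assembly group.

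In 12 of the 31 the 14 dpa library also held 3 reads or fewer, and in 19 it held more. The 14 dpa level of the 31 was 0 to 10.1% of the 7 dpa level with a median of 0.963%. Among the 69 the same share was 0 to 41.0% with a median of 22.5%. The 31 were thus almost confined to the 7 dpa library, while most of the 69 were still well above 0 at 14 dpa. The rule holds the 14 dpa level of every member under its 7 dpa level. For the 31 the margin rests almost on the 14 dpa level alone. This contrast is therefore partly fixed by the choice of members and by the split.

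Components read in only one library were examined at all levels, since a component of one library may belong to that library as well as to its stage. With at least 20 reads in one library and 3 or fewer in each of the others, there were 477, 0, 525 and 142 components at 0, 3, 7 and 14 dpa. They took up 0.0989% of the 7 dpa reads, 0.111% of the 0 dpa reads and 0.0127% of the 14 dpa reads. Of the 525, 44 carried a gene symbol, and of those 24 shared it with a different component that was over 1 CPM in every library. At 0 dpa 7 of the 477 carried a symbol and 3 shared it in this way, and at 14 dpa 3 of the 142 did and 2 shared it. The 44 components hold 24 symbols, among them genes of collagen, fibronectin, chaperones and the cytoskeleton that most cells or connective tissue use. Of the examples, chosen after their values were seen, pdia3, a disulphide isomerase of the endoplasmic reticulum, had 4 such components, with no read at 0 and 3 dpa, beside a component (comp16960_c0) at 150, 638, 617 and 635 CPM at 0, 3, 7 and 14 dpa. cfl2, a cofilin gene, had 256 and 84 reads at 7 dpa in a pair of such components with no read elsewhere, beside one (comp59515_c0) at 807, 1801, 1799 and 1648 CPM. Of the 44, the 24 components that shared a symbol hold only 10 symbols. Second components of genes expressed in every library were thus nearly confined to the 7 dpa library, and in fewer cases to the 0 or 14 dpa library. The 12 members with 3 reads or fewer in each other library are among the 525 by definition, each having at least 438 reads at 7 dpa. What the 31 members are, and whether they share the source of these second components, was not tested. RNA from another sample or organism in the 7 dpa library was not tested either, so the levels of the 31 are those of this library and are not shown to be those of the regenerating fin.

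The 69 other members had a median margin of 1.64, and their median levels were 3.12, 6.54, 32.6 and 7.11 CPM at 0, 3, 7 and 14 dpa. The library next to the 7 dpa one was 3 dpa in 37, 14 dpa in 22 and 0 dpa in 10. Between the flanking stages most differed by less than 1.5-fold. At 14 dpa against 3 dpa, 3 of the 69 (4.35%) were over 1.5-fold higher, 8 (11.6%) were over 1.5-fold lower and 58 lay within. Over the 11026 components 4.63% were higher and 2.64% lower. Over all 100 members 9 were higher and 8 lower. The 69 were set apart by their reads at 0 or 3 dpa, so their shares are partly fixed by that choice. The lower ones include mmp13 components, which can share reads. Before and after the peak the members were not all above the uninjured fin. Over all 100 members, 44 were over 1.5-fold higher at 3 dpa than at 0 dpa, against 70.4% of the 11026 components, and 4 were lower, against 8.57%. At 14 dpa against 0 dpa, 48 members were over 1.5-fold higher, against 70.1%, and 5 were lower, against 7.65%. Under a trimmed mean of log ratios both counts became 27 higher and 23 lower, against 31.4% and 30.3% of the 11026 at 3 dpa and 29.3% and 31.1% at 14 dpa. By library totals the 31 members with 3 reads or fewer at 0 and 3 dpa gave none of these calls at 3 dpa and 6 of the 48 at 14 dpa.

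Among the unnamed members, those at ranks 48, 52, 54, 65, 72 and 80 had the highest 7 dpa CPM, and all of these were already read at 0 and 3 dpa. comp53366_c0, at rank 52, had the highest 7 dpa CPM of them, at 108, 234, 1235 and 319 CPM at 0, 3, 7 and 14 dpa. An order of members by CPM also reflects transcript length. The member at rank 65 was high throughout, at 293, 347, 1090 and 256 CPM, the highest 0 dpa CPM of the 100. The members at ranks 72 and 80 were also well read in the uninjured fin, at 104 and 108 CPM at 0 dpa and 305 and 292 CPM at 7 dpa, with the 3 and 14 dpa levels between 88.3 and 105.7 CPM. Their log2 changes at 7 dpa against 0 dpa were 1.55 and 1.42 by library totals and 0.56 and 0.43 under the trimmed mean, where neither passed 1.5-fold. The members at ranks 48 and 54 started lower, at 10.02 and 28.7 CPM, and reached 641 and 315 CPM at 7 dpa. The paired gene without a symbol at rank 57 was at 19.5, 39.2, 139 and 31.7 CPM. By contrast, rank 9 was read at 0 dpa (2.12 CPM) and at 7 dpa (51.3 CPM) and listed at 0 at both 3 and 14 dpa, a pattern seen in no other member.

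The members just inside and just outside the threshold did not stand apart from each other. Ranks 96 to 100 had margins of 1.30 to 1.27, and the next 5 ranks, not taken, had 1.27 to 1.25. The 5 named components nearest below were hmgb1b, a chromatin protein gene, at 27.5, 19.8, 66.8 and 19.7 CPM at 0, 3, 7 and 14 dpa with a margin of 1.25, gpc1a, a glypican, with a margin of 1.20, tnip1, a regulator of NF-kB signalling, with 1.10, scgn, a calcium-binding protein gene, with 1.08, and ccdc80 with 1.02.

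Within components, the transcript that led at 7 dpa was mostly the one that led elsewhere. A single transcript made up 70 members (70%), against 53.1% of the 11026 components. Of the 30 members with more, 21 had at least a pair of transcripts over 10% of the 7 dpa reads, and 24 had at least 20 reads in the other libraries together. In 22 of those 24 (91.7%) the same transcript led at 7 dpa and in the other libraries, against 4396 of 5166 components (85.1%). The exceptions were rank 36, with 7 transcripts, where the leading one took 39.7% of the 7 dpa reads and 13.6% elsewhere, and rank 38, with 5 transcripts, where it took 50.1% at 7 dpa and 23.1% elsewhere. In il1b the leading transcript took 97.7% of the reads at 7 dpa and 89.6% elsewhere, and in acp5a 79.1% and 75.1%. Reads shared by transcripts of a component were divided by estimation, so such shares carry an error that the files do not state.

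The same ranking was run for each of the other libraries to set the 7 dpa members beside them. The top 100 had median margins of 5.18, 0.72, 1.97 and 1.92 at 0, 3, 7 and 14 dpa. Components over 2-fold above every other library numbered 876 of 7494 at 0 dpa, only 3 of 11722 at 3 dpa, then 155 of 11026 at 7 dpa and 173 of 12067 by 14 dpa. The 7 and 14 dpa libraries were thus alike in their margins, the 0 dpa library had far larger ones and the 3 dpa library hardly any. The 7 and 14 dpa libraries differed in absence elsewhere. At 7 dpa 32 of 11026 components, all of them members, had 3 reads or fewer in at least 2 of the other libraries. There were 25 of 7494 at 0 dpa, 4 of 11722 at 3 dpa and 3 of 12067 at 14 dpa. In all 3 other libraries, 14 components at 0 dpa and 12 at 7 dpa had 3 reads or fewer, against 0 at 3 and 14 dpa. The 0 dpa library thus shared this trait with the 7 dpa library.

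**Figure D4:**
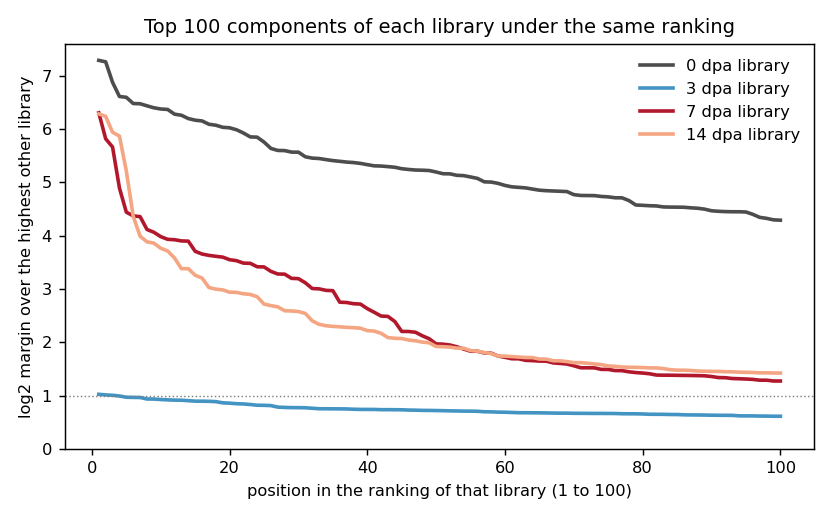
Log2 margin over the highest other library for the top 100 components of each library, in order of rank, each ranking limited to components of at least 10 CPM in that library, with 2-fold as a dotted line. The 7 dpa and 14 dpa curves run close together with medians of 1.97 and 1.92, the 0 dpa curve lies far above with 5.18 and the 3 dpa curve below with 0.72.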

How the data were processed

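Illumina TruSeq polyA+ libraries of pooled pectoral fin tissue were sequenced at 0, 3, 7 and 14 dpa. The authors trimmed reads with Trimmomatic, assembled them without a genome in Trinity, estimated reads per transcript with RSEM and analysed them in edgeR. Versions are not given in the sources used here. The authors deposited log2 values under the name log CPM. Raised as powers of 2, the values above 0 gave whole numbers (tolerance 0.01%), and they were taken as log2 counts with no scaling for depth. Where 0 was listed the count may be 0 or 1 and was taken as 0.

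Of 132496 rows, 4760 exact repeats were dropped, leaving 127736 transcripts, whose counts were summed per component and scaled to CPM by library total. The depth was 39121698, 38095865, 43350285 and 38377535 reads at 0, 3, 7 and 14 dpa. A pseudocount of 1 CPM was used, and calls were changes over 1.5-fold. Clopper-Pearson intervals of the counts in a pair of libraries were carried to the log2(CPM + 1) scale and cover counting error only, as do floors of 3 reads. The 4 small RNA libraries were not used here.

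The members and lists were chosen with earlier results of these data known. Text names cover every member with a symbol in the study's tables (names only, tables held in part), the unnamed members first by rank and by 7 dpa level, others by rank (first 15, highest 10 at 7 dpa and 5 at 0 dpa, those with several transcripts, 5 on each side of the threshold), list genes highest at 7 dpa, and the 5 nearest named components below; names outside these were chosen after their values were seen. Identifiers matched no entry of the RefSeq gene table. Transcript sequences were not used here. Alternatives changed the scaling (trimmed mean with 30% of ratios and 5% of abundances trimmed, median of ratios, totals without 10 components, no scaling), pseudocount, minimum, repeats, listed 0, transcripts, depth and interval limit. The code was tested on simulated counts. Python 3.11.15, numpy 2.4.6, pandas 2.3.3, scipy 1.17.1 and matplotlib 3.10.9 were used.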

Additional observations from a re-analysis of the deposited data

Results flagged for a closer look

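In 4 members the whole counting interval of the change against 0 dpa lay over 1.5-fold higher at 7 dpa and over 1.5-fold lower at 3 or 14 dpa, a difference that was not tested because each stage held 1 library. Further members had smaller or less certain changes below 0 at 3 or 14 dpa, among them rank 84, with -0.36, 1.38 and -0.68 at 3, 7 and 14 dpa. The member at rank 9 had a log2 change of -1.64 at 3 dpa, 4.07 at 7 dpa and -1.64 again by 14 dpa, being listed at 0 reads in the first and last of these libraries. dctd, at rank 59, had -1.35, 1.74 and -1.90 at 3, 7 and 14 dpa. The member at rank 66 had -0.70, 1.64 and -1.0005 at those stages, and that at rank 83 had -0.93, 1.38 and -1.11. The pattern depends on the scaling. Under the trimmed mean, rank 83 was at 0.46 at 7 dpa against 0 dpa and did not pass 1.5-fold. In all, 23 members were then over 1.5-fold lower at 3 dpa and 23 at 14 dpa, beside 30.3% and 31.1% of the 11026. No group held enough libraries to look for a library far from the others.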

How the results depend on the processing

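No paired analysis was possible because each stage held 1 library, and for the same reason no library could be left out. The median margin of the top 100, 1.97, became 1.73 under the trimmed mean of log ratios and 1.73 under the median of ratios (72 and 71 members kept), 2.14 with no depth scaling, 1.55 with a pseudocount of 5 CPM, 1.66 with repeated rows kept, 2.75 and 1.07 with a 7 dpa minimum of 1 and 50 CPM (44 and 34 members kept), 2.40 with single transcripts (62 members kept) and 1.64 without the 31 members nearly absent at 0 and 3 dpa, an alternative chosen after seeing the data. Under the trimmed mean and the median of ratios, 94 and 93 members stayed over 1.5-fold above 0 dpa, and 22 of the 31 and 11 of the 13 named stayed in the top 100. Under both, all 100 stayed over 1.5-fold above 3 and 14 dpa. The 39 log2 changes of the named members kept their sign and stayed over 1.5-fold in all 507 values, of which 144 moved beyond their counting interval. The settings with a minimum of 1 and 50 CPM could not change these values but are counted in the 507. The named members were also chosen as highest at 7 dpa. The trimmed-mean counts at 3 and 14 dpa against 0 dpa and for the gene lists were also chosen after seeing the data. Depth limits transcripts absent elsewhere: a listed 0 at 0, 3 or 14 dpa allows 0.0767 to 0.0787 CPM at 3 reads.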
